A study of Ambystoma mexicanum with 12 samples.

Results

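The response of the axolotl (Ambystoma mexicanum) spinal cord to injury was examined in 6 control libraries of a series of 12. These were 3 libraries from control cords at 4 days post-injury (4 dpi control, libraries 1, 5 and 6), and they were compared with 3 from uninjured control cords (libraries 1, S2 and 5). They were chosen by their labels alone, and every gene with at least 0.5 TPM (transcript abundance scaled by gene length and by library total) in 3 of the 12 libraries was followed, 14764 genes in all. Animals of both groups measured 2 to 3 cm and had received a control inhibitor in the central canal, so the uninjured cords were not untreated. In the 4 dpi group a piece of cord was then removed surgically and tissue was collected 4 days later. The paper's methods had skin and muscle over the cord cleared with a needle first, and describe no sham wound for uninjured animals. Effects of that wound and of the cord injury cannot be told apart here. By the labels each library pooled 10 animals, but whether the pools came from separate clutches is not stated, so the p-values measure only the spread between these libraries. The title of library S2 carries no replicate number. The other 6 libraries (4 dpi and uninjured, both with a miR-200 inhibitor in place of the control inhibitor) entered the fit for the estimate of spread, and their own injury effect was set beside that in control. Genes carry the human symbols of the deposited table, and related genes such as lectins, cathepsins or globins may have shared reads.

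Salamanders rebuild the spinal cord after injury. Ependymoglia, the radial glial cells that line the central canal, divide and give rise to new glia and neurons. Before that, as in other vertebrates, damaged tissue is entered by granulocytes and by macrophages, which kill microbes with lysozyme and an oxidase, mark debris with complement and degrade it in lysosomes. Macrophages are required for limb regeneration in this species.

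Every library has the same TPM total, which removes the read depth, so the depth of these libraries is unknown. In the cell type markers examined, no set was at 0 in all control libraries, and the neuronal and ependymoglial markers of a spinal cord were present in each. Uninjured control library 1 held the most neural transcripts and library S2 the fewest oligodendrocyte and the most muscle transcripts. Summed oligodendrocyte markers reached 3420, 1770 and 1720 TPM in the 4 dpi control libraries, against 10500, 782 and 5040 TPM in the uninjured control libraries 1, S2 and 5. Skeletal muscle markers summed to 11800, 7020 and 10300 TPM in 4 dpi control, against 6660, 30500 and 16700 TPM in uninjured control. Across genes, pairs of 4 dpi control libraries correlated at r = 0.927 to 0.975 and pairs of uninjured control libraries at 0.82 to 0.908. These are bulk tissues, in which fewer cells of a type and less RNA per cell cannot be told apart.

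**Figure D1:**
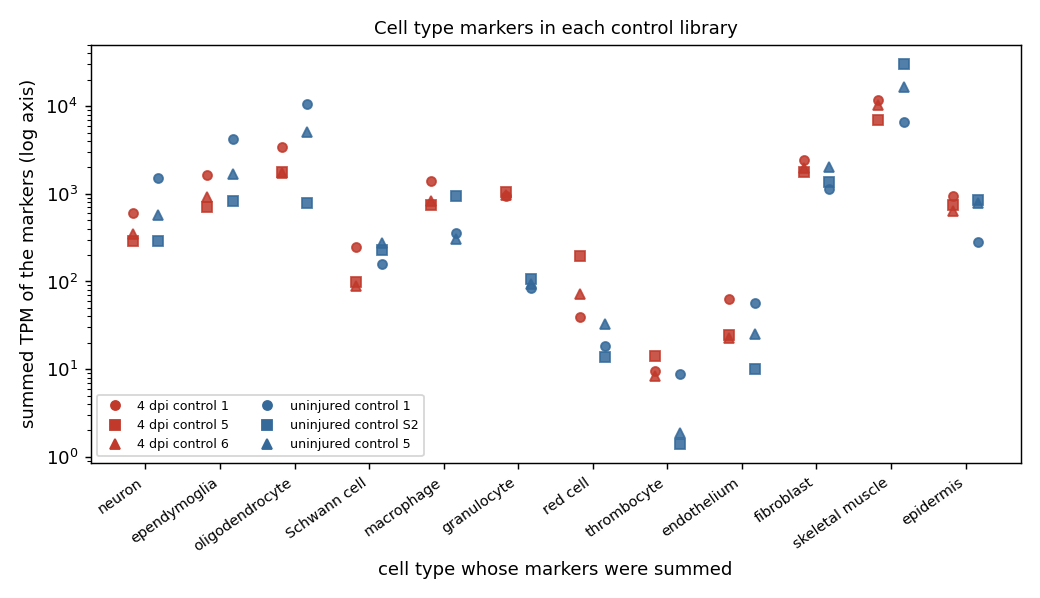
Summed TPM of cell type markers (log axis) in each control library, 4 dpi control in red and left of uninjured control in blue. Granulocyte markers lie at 934 to 1040 TPM in 4 dpi control, above all 3 uninjured control libraries at 84 to 108 TPM, with LYZ most of each sum (90 to 141 TPM at 4 dpi and 5.31 to 19 TPM uninjured without it), whereas the neural and muscle markers overlap between the groups. Red cell markers do not overlap either, at 39.4, 196 and 71.3 TPM in 4 dpi control against 18.6, 13.9 and 32.5 TPM in uninjured control.

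A total of 129 genes were higher (0.874% of the 14764 tested) and 9 were lower (0.061%), at an adjusted p under 0.05 in limma with an absolute log2 fold change above 1. The median log2 fold change of all genes tested was -0.09, and 56.4% lay below 0. At an unadjusted p under 0.05 in limma, 7.24% of all genes were higher and 3.27% lower, which is the background for counts of list members at an unadjusted p. With the same fold limit, an unadjusted p under 0.05 was met by 478 higher and 339 lower genes. Fold changes are on the log2(TPM + 0.5) scale, on which the change of weakly expressed genes is understated. They included many genes known from granulocytes and macrophages. The median log2 fold change of the 129 was 2.42, with a range of 1.01 to 4.53. In all 129 genes every 4 dpi control library lay above every uninjured control library, and in all 9 genes every one lay below, although 1127 genes (7.63%) lay entirely above and 293 (1.98%) entirely below in this way over the whole table. A fit of the 6 control libraries alone called 5 genes, all higher: PLBD1, FABP1, LYZ, CD53 and CYBB. That fit has fewer degrees of freedom and takes its spread from these libraries only, and the cause of the lower number was not tested. Without library S2, 320 genes passed, and without 4 dpi control library 5 or 6 the number was 91 or 85. Of the 320, 269 were higher, against 129 with all libraries. Counts of list members without S2, given below, are to be read against that rise over all genes. Of the 138 changed genes, 74 (68 higher and 6 lower) passed without each of the 12 libraries in turn.

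Genes known from granulocytes included LYZ and PLBD1, which also passed under every alternative fit. The other granulocyte markers, CEBPE, CSF3R and MPO, did not pass (adjusted p = 0.1, 0.278 and 0.505, limma). LYZ encodes lysozyme, which macrophages hold too, so its level is not particular to granulocytes. It had 807, 954 and 817 TPM in 4 dpi control, against 77.9, 89.5 and 87.5 TPM in uninjured control. The libraries of each group lay close together and far from those of the other group (log2 fold change 3.33, SE 0.16, adjusted p = 5.37e-07, limma). PLBD1, a phospholipase B-like protein of granulocyte granules, had 102, 79.6 and 129 TPM in 4 dpi control, against 5.32, 2.99 and 4.1 TPM in uninjured control. Its log2 fold change was 4.49 (SE 0.26, adjusted p = 2.49e-06, limma). TCN1, a cobalamin-binding protein stored in neutrophil granules in human, had 184, 89.9 and 79.8 TPM in 4 dpi control, against 1.63, 12.6 and 3.4 TPM in uninjured control, with library S2 the highest of the uninjured cords (log2 fold change 4.53, SE 0.54, adjusted p = 0.000786, limma). CXCR1, a receptor for neutrophil-attracting chemokines, reached 13.2, 24.1 and 22 TPM in 4 dpi control, against 2.37, 4.81 and 0.791 TPM in uninjured control (adjusted p = 0.00455, limma). PRG2, the major basic protein of eosinophil granules, was at 27.3, 32.6 and 19.1 TPM in 4 dpi control, against 7.16, 0 and 0 TPM in uninjured control. PRG2 passed at an adjusted p of 0.0131 in limma, but not without 4 dpi control library 5 (0.0695) or uninjured control library 5 (0.0672). EPX, the eosinophil peroxidase, was chosen after its values were seen and went the other way without passing the test, at 0.846, 0 and 1.14 TPM in 4 dpi control against 3.66, 1.54 and 2.1 TPM in uninjured control.

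Among 25 granulocyte genes tested, 4 were higher and the other 21 did not pass, with a list median of 1.03 against -0.09 for all genes. This and all other gene lists were chosen with earlier results of these data known. Their medians and counts therefore describe the lists and are not independent support that a class of genes changed. Without library S2, 8 of the granulocyte genes were higher, where higher genes over the whole table rose from 129 to 269. Without 4 dpi control library 5 or uninjured control library 5 the number was 3. S2 held 63.2 TPM of PRTN3, a neutrophil serine protease, against 5.84 and 3.25 TPM in uninjured control libraries 1 and 5, and the 4 dpi control libraries held 66.7, 77.6 and 98.3 TPM. The summed granulocyte list made up 0.147, 0.179 and 0.16% of all transcripts in 4 dpi control, against 0.0385, 0.0473 and 0.0425% in uninjured control. LYZ was the largest part of this sum at 4 dpi, and without it the shares were 0.0663, 0.0835 and 0.0782% in 4 dpi control, against 0.0307, 0.0384 and 0.0338% in uninjured control. Every 4 dpi library was above every uninjured one both with and without LYZ.

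The phagocyte oxidase makes superoxide in granulocytes and macrophages. CYBB, the catalytic membrane subunit, had 114, 102 and 91 TPM in 4 dpi control, against 14.7, 15.5 and 10.3 TPM in uninjured control (log2 fold change 2.89, SE 0.23, adjusted p = 5.45e-05, limma). It passed without each library in turn. Of the 6 oxidase genes tested, 4 did not pass (adjusted p = 0.0779 to 0.496, limma). All 6 had a log2 fold change above 0, and the median was 1.47.

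**Figure D2:**
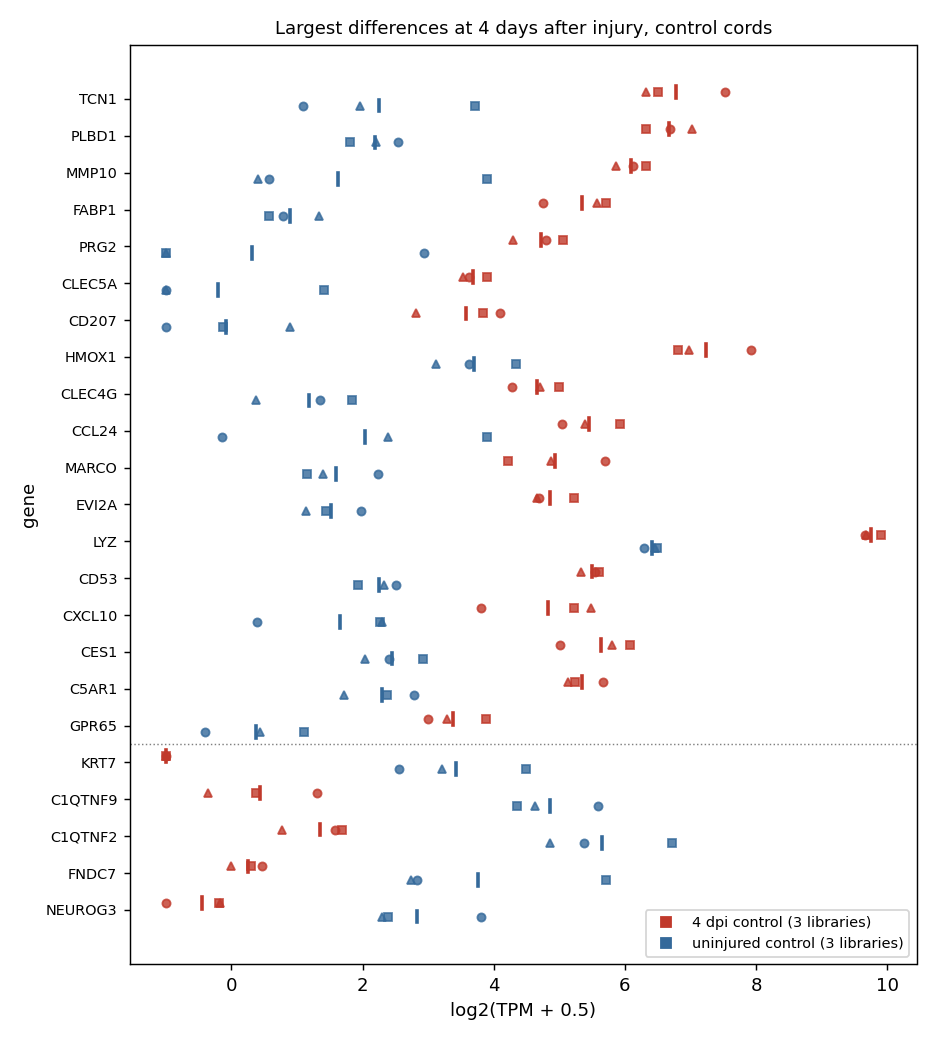
Level of the genes reported with the largest differences in each control library, as log2(TPM + 0.5), 4 dpi control in red and above uninjured control in blue, with vertical ticks at the group means. Circles, squares and triangles are libraries 1, 5 and 6 in 4 dpi control and libraries 1, S2 and 5 in uninjured control. Genes above the dotted line were higher at 4 dpi, from TCN1 at 4.53 to GPR65 at 3.00, and those below it were lower, and no gene shown has overlapping groups.

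Macrophage genes had the highest list median with all libraries, but not in several alternative fits. Without 4 dpi control library 1 it was 1.14, under 1.29 for phagocyte oxidase and 1.18 for granulocyte genes. Mitochondrially encoded genes had the higher median without 4 dpi control library 5 (1.92 against 1.86 for macrophage genes) or 6 (2.36 against 1.84). Without S2 the medians were 1.56 for mitochondrially encoded, 1.52 for phagocyte oxidase and 1.47 for macrophage genes. A pseudocount of 0.1 TPM gave 2.01 for mitochondrially encoded and 1.87 for macrophage genes. The replicate number as a block gave 2.25 and 1.66. Among the 27 macrophage genes tested, 9 were higher and the other 18 did not pass, with a median of 1.67 and 23 members above 0. MARCO, a scavenger receptor that binds bacteria and debris, had 51.4, 18.1 and 28.9 TPM in 4 dpi control, against 4.21, 1.72 and 2.12 TPM in uninjured control (log2 fold change 3.34, SE 0.38, adjusted p = 0.000711, limma). GPNMB, a glycoprotein of lipid-laden macrophages, had 53.5, 28.8 and 31 TPM in 4 dpi control, against 3.62, 5.63 and 4.45 TPM in uninjured control (log2 fold change 2.88, SE 0.37, adjusted p = 0.00148, limma). TREM2, a receptor that senses lipids and apoptotic cells, had 64.8, 30.2 and 39.4 TPM in 4 dpi control, against 10, 2.93 and 5.36 TPM in uninjured control (log2 fold change 2.85, SE 0.39, adjusted p = 0.00227, limma). In each of these genes 4 dpi control library 1 was the highest and the groups did not overlap. MRC1, the mannose receptor, SPI1, the myeloid transcription factor PU.1, and CD68, a lysosomal membrane protein, rose by 2.62, 2.28 and 2.63 on the log2 scale (adjusted p = 0.000781, 0.00404 and 0.008, limma). VSIG4, a complement receptor of resident macrophages, passed narrowly (adjusted p = 0.0464, limma). It did not pass in limma without 4 dpi control library 1, 5 or 6 (0.0776, 0.104 and 0.0972) or without uninjured control library S2 or 5 (0.0602 and 0.0959), nor without any 1 of the 6 inhibitor libraries (0.0709 to 0.0843).

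Several defining macrophage genes did not pass. MPEG1, a pore-forming protein of macrophages, had 861, 359 and 490 TPM in 4 dpi control and 236, 927 and 208 TPM in uninjured control, so that the highest value of all was that of library S2. This gene was the largest part of the macrophage marker sum, which was 1390, 744 and 833 TPM in 4 dpi control, against 356, 948 and 307 TPM in uninjured control. CSF1R, the receptor for macrophage colony-stimulating factor, had 21.6, 9.45 and 9.48 TPM in 4 dpi control, against 7.78, 1.47 and 3.18 TPM in uninjured control, without overlap (log2 fold change 1.73, SE 0.47, adjusted p = 0.132, limma). AIF1, a cytoplasmic protein of macrophages and microglia, is not among the defining markers and was chosen after its values were seen. It showed 202, 170 and 175 TPM in 4 dpi control, against 103, 23.4 and 72.3 TPM in uninjured control (adjusted p = 0.0963, limma). Microglia and macrophages share these genes and cannot be told apart here.

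Genes of leukocyte signaling leaned in the same direction. CD53, a tetraspanin of blood cells, had 46.1, 48 and 39.8 TPM in 4 dpi control, against 5.22, 3.32 and 4.49 TPM in uninjured control (log2 fold change 3.24, SE 0.28, adjusted p = 0.000109, limma). TYROBP, the adaptor through which TREM2 signals, had 36.1, 43.1 and 39.8 TPM in 4 dpi control, against 7.07, 4.84 and 10.6 TPM in uninjured control (log2 fold change 2.39, SE 0.26, adjusted p = 0.00051, limma). PTPRC, the pan-leukocyte antigen CD45, had 15, 8.29 and 8.39 TPM in 4 dpi control, against 2.65, 1.32 and 1.87 TPM in uninjured control (adjusted p = 0.00814, limma). These 3 were the ones higher among 33 leukocyte signaling genes, none was lower, and the median was 1.09. Among 24 genes of the leukocyte cytoskeleton 3 were higher and none was lower, with a median of 0.54. They were LCP1, an actin-bundling plastin, PLEK, a kinase substrate of platelets and leukocytes, and NCKAP1L, a subunit of the blood cell WAVE complex, with log2 fold changes of 2.66, 2.54 and 2.42. LCP1 was at 64.6, 53.8 and 54.1 TPM in 4 dpi control, against 10.5, 7.51 and 8.13 TPM in uninjured control. Without library S2, 5 members of each of the leukocyte signaling and leukocyte cytoskeleton lists were higher, with 269 higher over all genes.

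None of the 15 genes tested from the lymphocyte list passed, and their median was 0.25 (unadjusted p under 0.05 in limma for 2 higher and 1 lower). CD22, a B cell receptor, came closest, at 18.7, 12.7 and 13.5 TPM in 4 dpi control and 4.67, 5.27 and 7.79 TPM in uninjured control (adjusted p = 0.117, limma). Of 20 antigen presentation genes none passed either (median 0.16, unadjusted p under 0.05 for 4, all higher). CD74, the invariant chain of class II molecules, was chosen after its values were seen. It overlapped between the groups at 23.1, 12.9 and 12 TPM in 4 dpi control and 27.8, 10.7 and 33.7 TPM in uninjured control. KLRG1, JCHAIN and THEMIS2, also known from lymphocytes, are outside the lymphocyte list and were higher (adjusted p = 0.0136, 0.0337 and 0.0467, limma). They were chosen after their values were seen, and KLRG1 was lost without uninjured control library 5 (0.065). The calls of JCHAIN and THEMIS2 were lost more often, as given below.

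Some C-type lectins, which recognise sugars on microbes and on dying cells, changed too, although no list of them was made. CLEC5A, a myeloid activating lectin, was at 11.8, 14.4 and 11.1 TPM in 4 dpi control, against 0, 2.15 and 0 TPM in uninjured control (log2 fold change 3.88, SE 0.52, adjusted p = 0.00181, limma). CD207, the langerin of dendritic cells in mammals, was at 16.5, 13.8 and 6.57 TPM in 4 dpi control, against 0, 0.414 and 1.36 TPM in uninjured control (log2 fold change 3.66, SE 0.47, adjusted p = 0.00155, limma). CLEC4G, a lectin of sinusoidal endothelium in human, was at 18.9, 31.3 and 25.5 TPM in 4 dpi control, against 2.04, 3.07 and 0.793 TPM in uninjured control (adjusted p = 0.00115, limma). None of these overlapped between groups, and CLEC4M and CLEC4E, chosen after their values were seen, also passed. Since vertebrate lectins form a large family, the human symbols may not mark the same cells in axolotl.

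Further genes among the 20 largest increases belong to leukocytes or to lipid handling. EVI2A, a transmembrane protein of blood cells, had 25.3, 36.8 and 24.7 TPM in 4 dpi control, against 3.42, 2.22 and 1.71 TPM in uninjured control (log2 fold change 3.33, SE 0.31, adjusted p = 0.00014, limma). GPR65, an acid-sensing receptor of leukocytes, had 7.47, 14.2 and 9.23 TPM in 4 dpi control, against 0.256, 1.66 and 0.854 TPM in uninjured control (adjusted p = 0.00155, limma). CES1, a carboxylesterase that acts on lipids and drugs, had 31.8, 66.7 and 55.3 TPM in 4 dpi control, against 4.77, 7.04 and 3.62 TPM in uninjured control (adjusted p = 0.000786, limma). All 3 passed without each library in turn.

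Cytokine genes moved less evenly. CXCL10, a chemokine induced by interferon, had 13.5, 36.7 and 44 TPM in 4 dpi control, against 0.814, 4.29 and 4.41 TPM in uninjured control (log2 fold change 3.18, SE 0.58, adjusted p = 0.0168, limma). It did not pass without 4 dpi control library 5 or 6 (adjusted p = 0.0912 and 0.107, limma) or with median-of-ratios scaling of the libraries (0.0562). CCL24, an eosinophil-attracting chemokine, had 32.3, 60.4 and 41.5 TPM in 4 dpi control, against 0.403, 14.4 and 4.71 TPM in uninjured control, and was the weakest call of the 20 largest increases (adjusted p = 0.0497, limma). It was lost without 4 dpi control library 1, 5 or 6 (0.0575, 0.205 and 0.17), without uninjured control library 5 (0.114, limma), and without any 1 of the inhibitor libraries (0.0721 to 0.082). CXCL10 and CCL24 are not in the list of cytokines and receptors. Of the 47 genes of that list tested, 3 were higher (CCR1, IL11 and TNFRSF1B), none was lower, and the median was 0.39. CCR1, a chemokine receptor of monocytes, reached 10.2, 5.53 and 5.64 TPM in 4 dpi control, against 1.05, 0.343 and 0.88 TPM in uninjured control (log2 fold change 2.59, adjusted p = 0.00544, limma). IL11, a cytokine of wounded stroma, and TNFRSF1B, a receptor for tumor necrosis factor, passed at adjusted p of 0.0451 and 0.0479 in limma, and each lost its call without 4 dpi control library 1 (0.0737 and 0.0848) or 6 (0.159 and 0.107) or uninjured control library 1 (0.0823 and 0.0556) or 5 (0.139 and 0.118), and TNFRSF1B also without 4 dpi control library 5 (0.0922). IL11 and TNFRSF1B were also lost without any 1 of the inhibitor libraries (0.0693 to 0.0827 and 0.072 to 0.0841, limma). The list of cytokines and receptors held 1 higher gene without 4 dpi control library 1 or 6, uninjured control library 5 or any 4 dpi inhibitor library. IL1B and TNF, the classical inflammatory cytokines, were chosen after their values were seen and overlapped between groups. IL1B was at 9.93, 30.3 and 16.5 TPM in 4 dpi control and 4.43, 65.7 and 5.39 TPM in uninjured control, with S2 the highest library.

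Complement genes, which tag and lyse targets, were higher in 5 of 29 members and lower in none (median 0.65). C5AR1, the receptor for the chemoattractant C5a, had 50.3, 37.2 and 34.7 TPM in 4 dpi control, against 6.41, 4.69 and 2.78 TPM in uninjured control (log2 fold change 3.05, SE 0.31, adjusted p = 0.000291, limma). C9, the pore-forming component, had 52.2, 47.7 and 45.7 TPM in 4 dpi control, against 8.24, 10.9 and 16 TPM in uninjured control (log2 fold change 2.05, SE 0.28, adjusted p = 0.00197, limma). C1QC, a chain of the recognition molecule C1q made by macrophages, had 257, 205 and 178 TPM in 4 dpi control, against 45.7, 12.8 and 64.9 TPM in uninjured control (log2 fold change 2.62, SE 0.44, adjusted p = 0.00966, limma). C1QB, another of its chains, rose by 2.26 (adjusted p = 0.0112, limma), while C1QA, the remaining chain, had 129, 113 and 87.2 TPM in 4 dpi control against 48.7, 0.879 and 21.7 TPM in uninjured control and did not pass (adjusted p = 0.156, limma). SERPING1, the inhibitor of C1, passed at 0.0291 and was lost without 4 dpi control library 1, 5 or 6 (0.0644, 0.0986 and 0.0949) or uninjured control library 1 (0.054, limma). Its call was also lost without 4 dpi inhibitor library 5, 6 or 7 (0.0517, 0.0608 and 0.0537, limma). Without library S2, 9 complement genes were higher, with 269 higher over all genes. Without 4 dpi control library 1, 5 or 6 the number of complement genes was 4.

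Genes of the interferon response list, which does not hold CXCL10, leaned up without a call. Of 34 tested, none passed, 29 had a log2 fold change above 0 and the median was 0.55. In limma 11 were higher and none was lower at an unadjusted p under 0.05. IFIT5, an antiviral RNA-binding protein, was at 459, 601 and 568 TPM in 4 dpi control and 135, 272 and 108 TPM in uninjured control, without overlap (adjusted p = 0.156, limma). Without library S2, 4 genes of the interferon response list were higher, with 269 higher over all genes.

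Lysosomes degrade engulfed material, and 6 of the lysosome genes tested passed. CTSB, a cysteine protease, had 1130, 1390 and 1190 TPM in 4 dpi control, against 435, 408 and 439 TPM in uninjured control (log2 fold change 1.53, SE 0.18, adjusted p = 0.000786, limma). CTSC, the protease that activates granule enzymes, had 456, 559 and 494 TPM in 4 dpi control, against 140, 147 and 155 TPM in uninjured control (log2 fold change 1.76, SE 0.16, adjusted p = 0.000158, limma). ASAH1, the acid ceramidase, had 416, 374 and 309 TPM in 4 dpi control, against 119, 98.8 and 123 TPM in uninjured control (log2 fold change 1.68, SE 0.18, adjusted p = 0.00051, limma). The uninjured libraries, S2 included, agreed closely for these 3 genes. CTSL and CTSV, closely related proteases that may share reads, rose by 1.83 and 1.57 (CTSV missed with median-of-ratios scaling, 0.064), and NPC2, a cholesterol carrier of the lysosome, by 1.01. The NPC2 call was lost without 4 dpi control library 5 or 6 (adjusted p = 0.0665 and 0.0609, limma), and without S2 its log2 fold change fell under 1. The other 36 of 42 lysosome genes did not pass, and the median was 0.36.

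Heme handling changed at 2 of 20 genes of iron and heme, both higher (median 0.31). HMOX1, which breaks heme down, had 243, 111 and 126 TPM in 4 dpi control, against 11.8, 19.7 and 8.21 TPM in uninjured control (log2 fold change 3.54, SE 0.34, adjusted p = 0.000219, limma). HPX, the plasma protein that binds free heme, had 104, 176 and 202 TPM in 4 dpi control, against 9.27, 40.1 and 17.9 TPM in uninjured control (log2 fold change 3.00, SE 0.47, adjusted p = 0.00572, limma). Red cell transcripts were measured beside these genes. HBA2, a globin, had 378, 624 and 521 TPM in 4 dpi control, against 145, 162 and 183 TPM in uninjured control, without overlap but without passing (adjusted p = 0.0775, limma). Of 20 erythroid genes none passed (7 higher at an unadjusted p under 0.05 in limma), with a median of 0.54, and the list summed to 0.179, 0.309 and 0.293% of transcripts in 4 dpi control, against 0.0946, 0.0656 and 0.131% in uninjured control. The part of blood left in the tissue in these differences was not tested. Without S2, 4 genes of iron and heme were higher, with 269 higher over all genes.

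Lipid carriers were higher in 4 of 28 genes and lower in none, although the median of the list was 0.07. FABP1, a fatty acid binding protein, had 26.5, 51.7 and 47.2 TPM in 4 dpi control, against 1.22, 0.99 and 2.03 TPM in uninjured control (log2 fold change 4.45, SE 0.46, adjusted p = 0.000341, limma). SOAT1, which esterifies cholesterol, had 98.9, 78.5 and 110 TPM in 4 dpi control, against 27.9, 14.9 and 18.4 TPM in uninjured control (log2 fold change 2.24, SE 0.31, adjusted p = 0.00227, limma). PLIN2, a coat protein of lipid droplets, had 17.2, 29.1 and 24.7 TPM in 4 dpi control, against 5.75, 6.85 and 6.15 TPM in uninjured control (log2 fold change 1.81, SE 0.27, adjusted p = 0.0045, limma). These 3 genes take up, esterify or store lipid. APOE, a lipoprotein of macrophages and glia, had 722, 1560 and 943 TPM in 4 dpi control, against 142, 162 and 336 TPM in uninjured control (log2 fold change 2.37, SE 0.40, adjusted p = 0.00964, limma), and did not pass without 4 dpi control library 5 (0.0567) or with median-of-ratios scaling (0.0562). Without S2, 6 lipid carriers were higher, with 269 higher over all genes. Without 4 dpi control library 1 or 5 the number of lipid carriers was 5 or 3.

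Matrix proteases and their inhibitors showed 3 higher genes of 45 and none lower (median 0.34). MMP2, a gelatinase, had 290, 299 and 159 TPM in 4 dpi control, against 83.6, 98.8 and 63.1 TPM in uninjured control (log2 fold change 1.57, SE 0.26, adjusted p = 0.00903, limma), and was lost without 4 dpi control library 5 (0.0567). MMP10, a stromelysin of wound edges, had 68.8, 79.2 and 57.8 TPM in 4 dpi control, against 0.986, 14.4 and 0.82 TPM in uninjured control, with S2 far above the other uninjured libraries (log2 fold change 4.48, SE 0.87, adjusted p = 0.0259, limma). MMP10 lost its call without 4 dpi control library 1, 5 or 6 (0.0531, 0.113 and 0.0949) and without uninjured control library 1 or 5 (0.0736 and 0.119, limma). Of the whole list, 0 genes passed without 4 dpi control library 5, 1 without 4 dpi control library 1 or uninjured control library 1 or 5, and 9 without S2. Epidermal markers also varied among the uninjured libraries, at 956, 747 and 632 TPM in 4 dpi control against 283, 855 and 779 TPM in uninjured control, and their part in the protease values was not tested.

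Genes of scar and provisional matrix were split. Of 53 tested, 1 was higher, none was lower and the median was 0.00 to 2 decimals. The 1 gene was THBS2, a matricellular protein, at 204, 99.5 and 108 TPM in 4 dpi control, against 37.4, 35.7 and 47 TPM in uninjured control (log2 fold change 1.70, SE 0.33, adjusted p = 0.024, limma). It was lost without 4 dpi control library 1 or 6 (0.0512 and 0.0617) or uninjured control library 1 or 5 (0.0556 and 0.054, limma). COL1A1, the main fibrillar collagen of mammalian scars, had 715, 249 and 327 TPM in 4 dpi control and 394, 666 and 406 TPM in uninjured control, which overlap. COL3A1, the collagen of early wounds, had 1810, 668 and 937 TPM in 4 dpi control, against 499, 305 and 421 TPM in uninjured control, without overlap (log2 fold change 1.38, SE 0.32, adjusted p = 0.0778, limma). FN1, fibronectin, had 156, 44.1 and 53.6 TPM in 4 dpi control, against 40.3, 25.6 and 26 TPM in uninjured control (adjusted p = 0.245, limma).

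**Figure D3:**
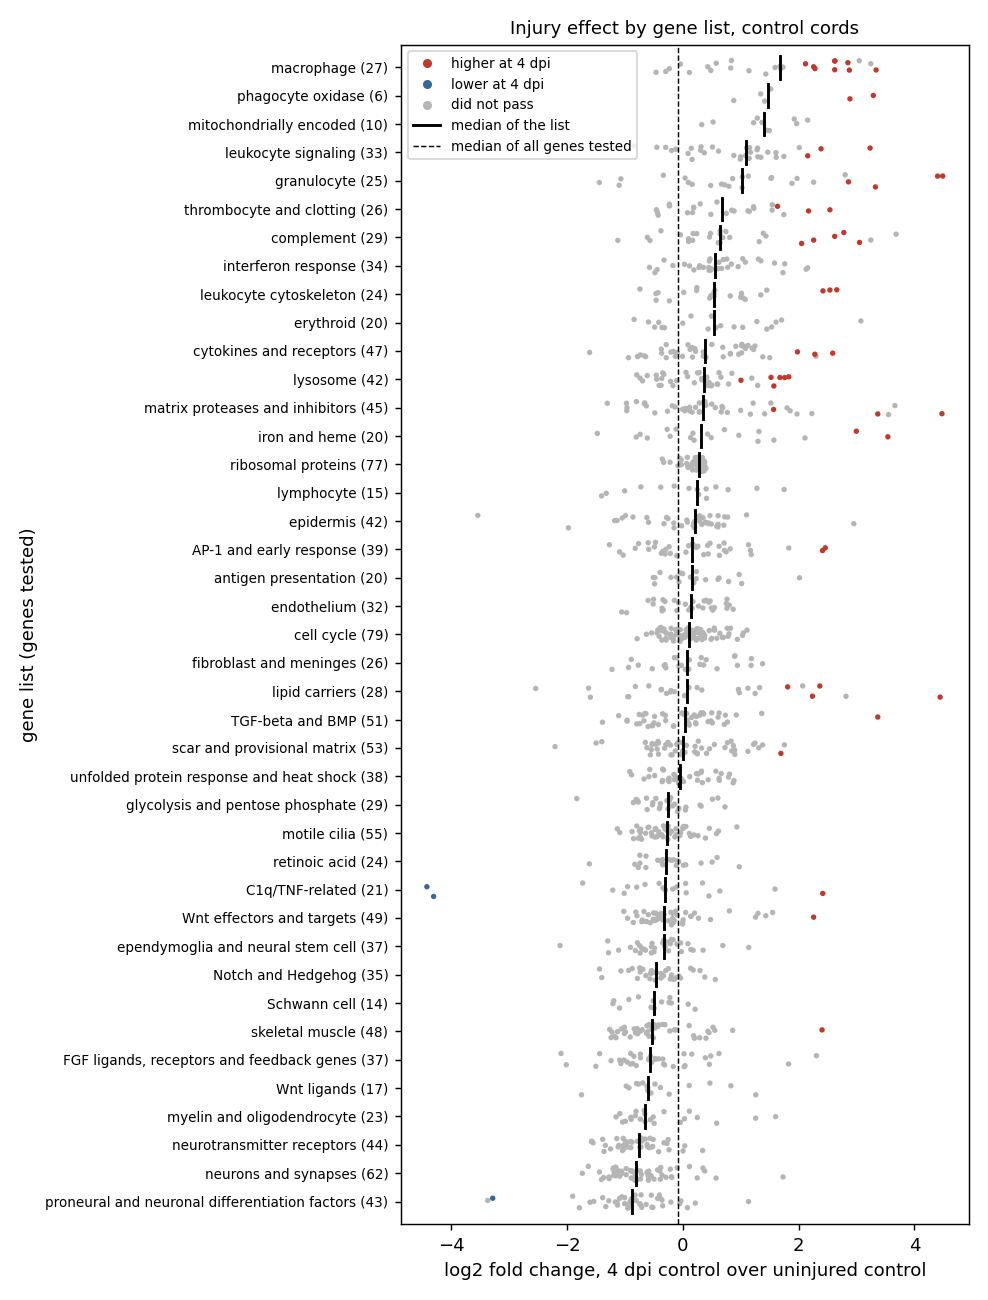
Log2 fold change of each tested member (points) of the gene lists in control cords, 4 dpi over uninjured, ordered by list median (black bars), with the median of all genes tested as a dashed line. Macrophage and phagocyte oxidase genes have the highest medians, at 1.67 and 1.47, and the neuronal lists the lowest, down to -0.87. Genes that passed the test (red higher, blue lower) are most numerous in the macrophage list (9) and the lysosome list (6), and some genes are in more than 1 list. The lists were chosen with earlier results of these data known.

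Transcription factors and signals of the injury response gave few calls. Among 39 genes of AP-1 and the early response 2 were higher and none was lower (median 0.17). ATF3, a stress-induced factor of injured neurons and other cells, had 9.91, 6.97 and 10.7 TPM in 4 dpi control, against 0.763, 2.92 and 0.826 TPM in uninjured control (log2 fold change 2.42, SE 0.41, adjusted p = 0.00964, limma). BATF3, a factor of dendritic cells in mouse, had 4.34, 8.4 and 7.59 TPM in 4 dpi control, against 0.355, 1.73 and 0.592 TPM in uninjured control (log2 fold change 2.46, SE 0.41, adjusted p = 0.00903, limma). Both were lost without 4 dpi control library 6 (0.0687 and 0.0617), and BATF3 also without 4 dpi control library 5 (0.0573, limma). Without S2, 4 genes of AP-1 and early response were higher, with 269 higher over all genes. Without 4 dpi control library 5 or 6 the number of AP-1 and early response genes was 1 or 0. JUN, a subunit of AP-1, had 121, 65.7 and 83.3 TPM in 4 dpi control and 70.8, 63 and 32.9 TPM in uninjured control, which overlap (log2 fold change 0.72, SE 0.34, adjusted p = 0.489, limma). FOS had 8.34, 1.7 and 3.87 TPM in 4 dpi control and 1.62, 2.45 and 0.659 TPM in uninjured control (adjusted p = 0.636, limma). JUNB, another AP-1 subunit, was at 390, 212 and 285 TPM in 4 dpi control, against 37.8, 347 and 39 TPM in uninjured control, so that S2 stood with the injured cords.

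Of the signaling lists, Wnt ligands (17 genes, median -0.60), FGF genes (37, median -0.56), Notch and Hedgehog genes (35, median -0.45) and retinoic acid genes (24, median -0.29) held no gene that passed. At an unadjusted p under 0.05 in limma, 1, 9, 2 and 3 genes of these lists did, most of them lower. DKK1, a secreted Wnt inhibitor, was the 1 gene higher of 49 Wnt effectors and targets (median -0.32), at 6.46, 3.3 and 5.07 TPM in 4 dpi control, against 0.446, 1.12 and 0.372 TPM in uninjured control (log2 fold change 2.26, SE 0.41, adjusted p = 0.0168, limma). It was lost without 4 dpi control library 6 (0.0973) or uninjured control library 5 (0.075, limma). WNT5A had 20.5, 16.2 and 15.6 TPM in 4 dpi control and 15.3, 7.3 and 7.6 TPM in uninjured control (adjusted p = 0.51), and CTNNB1, the Wnt effector beta-catenin, 188, 107 and 132 TPM in 4 dpi control and 201, 91.1 and 108 TPM in uninjured control (adjusted p = 0.875, limma). HGF, a growth factor for epithelium and muscle, was not in a list and was named after its values were seen. It had 15.3, 9.44 and 12.3 TPM in 4 dpi control, against 0.859, 3.33 and 0.418 TPM in uninjured control (log2 fold change 2.91, SE 0.47, adjusted p = 0.00781, limma).

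None of 37 genes of ependymoglia and neural stem cells passed, 31 had a log2 fold change below 0 and the median was -0.33. The median of the ependymoglia and neural stem cell list was 0.00 without uninjured control library 1, -0.09 without 4 dpi control library 5, -0.55 without S2, -0.71 without uninjured control library 5 and -0.74 without 4 dpi control library 1. Relative to all genes these medians were -0.12, -0.12, -0.36, -0.54 and -0.48, against -0.24 with all libraries. At an unadjusted p under 0.05 in limma, 2 were higher and 2 lower. GFAP, the intermediate filament of these cells, had 827, 313 and 421 TPM in 4 dpi control and 2340, 449 and 1040 TPM in uninjured control, which overlap (log2 fold change -1.11, SE 0.53, adjusted p = 0.488, limma). SOX2, a neural stem cell factor, had 115, 35.7 and 66 TPM in 4 dpi control and 232, 57.5 and 57.2 TPM in uninjured control (log2 fold change -0.50, adjusted p = 0.734, limma). NES, a filament of progenitors, had 191, 190 and 189 TPM in 4 dpi control, against 123, 57.3 and 90.7 TPM in uninjured control, without overlap (log2 fold change 1.14, SE 0.27, adjusted p = 0.0857, limma). Of 79 cell cycle genes none passed and the median was 0.10, although 3 cell cycle genes were higher without 4 dpi control library 1. In limma 11 cell cycle genes were higher and 1 was lower at an unadjusted p under 0.05. CDK1, the mitotic kinase, came first by p, at 82, 151 and 158 TPM in 4 dpi control, against 43.6, 68.7 and 75 TPM in uninjured control (log2 fold change 1.03, SE 0.28, adjusted p = 0.132, limma).

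Neuronal lists had the lowest medians, but their levels turned on the uninjured libraries. Of 62 genes of neurons and synapses none passed, 56 had a log2 fold change below 0, and the median was -0.81 (unadjusted p under 0.05 in limma for 1 higher and 3 lower). The list summed to 0.929, 0.436 and 0.545% of transcripts in 4 dpi control, against 2.36, 0.396 and 0.776% in uninjured control, so that S2 lay below all 3 injured libraries and library 1 above all. Without uninjured control library 1 the median of the neurons and synapses list relative to all genes was -0.10, and without S2 it was -1.13, against -0.72 with all libraries. NEFL, a filament of axons, had 569, 189 and 238 TPM in 4 dpi control and 1610, 278 and 506 TPM in uninjured control (adjusted p = 0.512, limma). Of 44 neurotransmitter receptors and 23 myelin and oligodendrocyte genes none passed, with medians of -0.76 and -0.65. Without uninjured control library 1 the medians of the neurotransmitter receptors and the myelin and oligodendrocyte list were -0.10 and 0.12, where that of all genes was 0.119. Without S2 they were -1.28 and -1.14, where that of all genes was -0.188. Relative to all genes, the medians of these 2 lists were -0.22 and 0.01 without library 1 and -1.09 and -0.95 without S2. With all libraries they were -0.67 and -0.57 relative to all genes. At an unadjusted p under 0.05 in limma, 5 of the receptors were lower and 1 myelin gene was higher. RBFOX3, the neuronal nuclear protein NeuN, had 9.85, 3.63 and 3.15 TPM in 4 dpi control and 44.1, 18.3 and 6.33 TPM in uninjured control (adjusted p = 0.297, limma).

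Among 43 proneural and neuronal differentiation factors, 1 was lower and none was higher, and 40 had a log2 fold change below 0 (median -0.87). Relative to all genes this median was -0.45 without uninjured control library 1 and -1.02 without S2, against -0.78 with all libraries. The list summed to 0.328, 0.192 and 0.248% of transcripts in 4 dpi control and 0.757, 0.162 and 0.303% in uninjured control, which overlap. The 1 lower gene was NEUROG3, a proneural factor, at 0, 0.374 and 0.391 TPM in 4 dpi control, against 13.5, 4.75 and 4.39 TPM in uninjured control (log2 fold change -3.28, SE 0.53, adjusted p = 0.00781, limma). Its values did not overlap between the groups, and it passed without each library in turn, but not with a pseudocount of 0.1 TPM (0.0639). ATOH1, a proneural factor of dorsal interneurons, was listed at 0 in all 4 dpi control libraries and at 10.8, 6.28 and 1.29 TPM in uninjured control, and did not pass (adjusted p = 0.0643, limma). NEUROD4, a differentiation factor, had 6.77, 1.28 and 2.95 TPM in 4 dpi control, against 22.9, 7.36 and 9.38 TPM in uninjured control, without overlap (log2 fold change -1.78, SE 0.54, adjusted p = 0.205, limma).

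The 9 genes that were lower had little else in common. KRT7, a keratin of simple epithelium, was listed at 0 in all 4 dpi control libraries and at 5.39, 22 and 8.78 TPM in uninjured control (adjusted p = 0.000786, limma). C1QTNF9, a secreted C1q/TNF-related protein, had 1.98, 0.798 and 0.278 TPM in 4 dpi control, against 47.8, 19.9 and 24.3 TPM in uninjured control (log2 fold change -4.42, SE 0.56, adjusted p = 0.0013, limma). C1QTNF2, of the same family, had 2.48, 2.73 and 1.21 TPM in 4 dpi control, against 41, 105 and 28.5 TPM in uninjured control (log2 fold change -4.30, SE 0.65, adjusted p = 0.00458, limma). Both lay far apart between the groups, and as related genes they may share reads. Of 21 genes of the C1q/TNF-related family, 2 were lower and 1, COL10A1, was higher, with a median of -0.30. FNDC7, a fibronectin type III domain protein, had 0.885, 0.731 and 0.494 TPM in 4 dpi control, against 6.64, 52 and 6.17 TPM in uninjured control (log2 fold change -3.51, SE 0.67, adjusted p = 0.0231, limma), and was lost without 4 dpi control library 5 or 6 (0.0865 and 0.116) or with median-of-ratios scaling (0.0562). NEUROG3 was described above. The remaining 4, FAM229A, ZAN, ADRB3 and ZNF17, were at low levels and are named after their values were seen. FAM229A, ZAN and ADRB3 were listed at 0 in all 4 dpi control libraries, with uninjured control values of 1.88 to 4.09 TPM, and ADRB3 was lost without each of the 6 control libraries in turn (adjusted p = 0.0516 to 0.144, limma). The ADRB3 call was also lost without any 1 of the uninjured inhibitor libraries (0.0669 to 0.073, limma).

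Conversely, 8 higher genes were listed at 0 in all uninjured control libraries, so no fold is given for them. PAX3, a factor of muscle and dorsal neural progenitors, had 4.96, 1.52 and 1.19 TPM in 4 dpi control and was the 1 gene higher of 48 in the skeletal muscle list (median -0.54). Its call (adjusted p = 0.0451, limma) was lost without any of 4 dpi control libraries 1, 5 and 6 (0.0635, 0.0963 and 0.0617) or uninjured control libraries 1 and 5 (0.0623 and 0.117). COL10A1, a collagen of cartilage, had 1.51, 1.42 and 4.45 TPM in 4 dpi control, and was lost without 4 dpi control library 5 or 6 (0.0634 and 0.186) or uninjured control library 5 (0.0908, limma). PAX3 and COL10A1 were also lost without any 1 of the inhibitor libraries (0.0739 to 0.0818 and 0.0511 to 0.0628, limma). The other 6, KCNJ8, SIGLEC14, JCHAIN, KLHL9, TVP23A and THEMIS2, lay at 1.14 to 6.36 TPM in 4 dpi control. They are named after their values were seen. KCNJ8 was lost without each of the 6 control libraries in turn (adjusted p = 0.0554 to 0.183, limma). THEMIS2 was lost without each of them except S2 (0.0551 to 0.182), and JCHAIN without 4 dpi control library 5 or 6 or uninjured control library 1 or 5 (0.0556 to 0.199). KCNJ8, THEMIS2 and JCHAIN were each also lost without some of the inhibitor libraries. KLHL9 was lost without 4 dpi control library 5 or 6 or uninjured control library 5 (0.0627 to 0.118, limma), and SIGLEC14 without 4 dpi control library 5 (0.0781).

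Other tissue lists showed few calls. Of 26 thrombocyte and clotting genes 3 were higher (median 0.67), among them F13A1, the clotting factor subunit also made by macrophages, at 195, 150 and 146 TPM in 4 dpi control, against 35.5, 74.3 and 52.6 TPM in uninjured control (log2 fold change 1.64, SE 0.27, adjusted p = 0.00903, limma, and 0.0541 with median-of-ratios scaling). PLEK, described with the leukocyte genes, and NFE2, a megakaryocyte factor, were the others. NFE2 (adjusted p = 0.0468, limma) was lost without 4 dpi control library 1, 5 or 6 (0.0797, 0.176 and 0.0622) and without S2 or uninjured control library 5 (0.0542 and 0.145). Its call was also lost without any 1 of the inhibitor libraries (0.0617 to 0.0875, limma). No gene passed among 32 endothelial, 26 fibroblast and meninges, 42 epidermal, 14 Schwann cell and 55 motile cilia genes, with medians of 0.15, 0.07, 0.21, -0.50 and -0.27. Nor did any pass among 38 genes of the unfolded protein response and heat shock, 29 of glycolysis and the pentose phosphate pathway, or 77 ribosomal protein genes, with medians of -0.05, -0.25 and 0.28. In these 8 lists, 0 to 8 genes each had an unadjusted p under 0.05 in limma. The skeletal muscle list summed to 3.72, 2.35 and 2.93% of transcripts in 4 dpi control, against 2.05, 7.61 and 6.22% in uninjured control. Without uninjured control library 1, 6 skeletal muscle genes were lower. TGF-beta and BMP genes (51, median 0.05) held 1 higher gene.

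**Figure D4:**
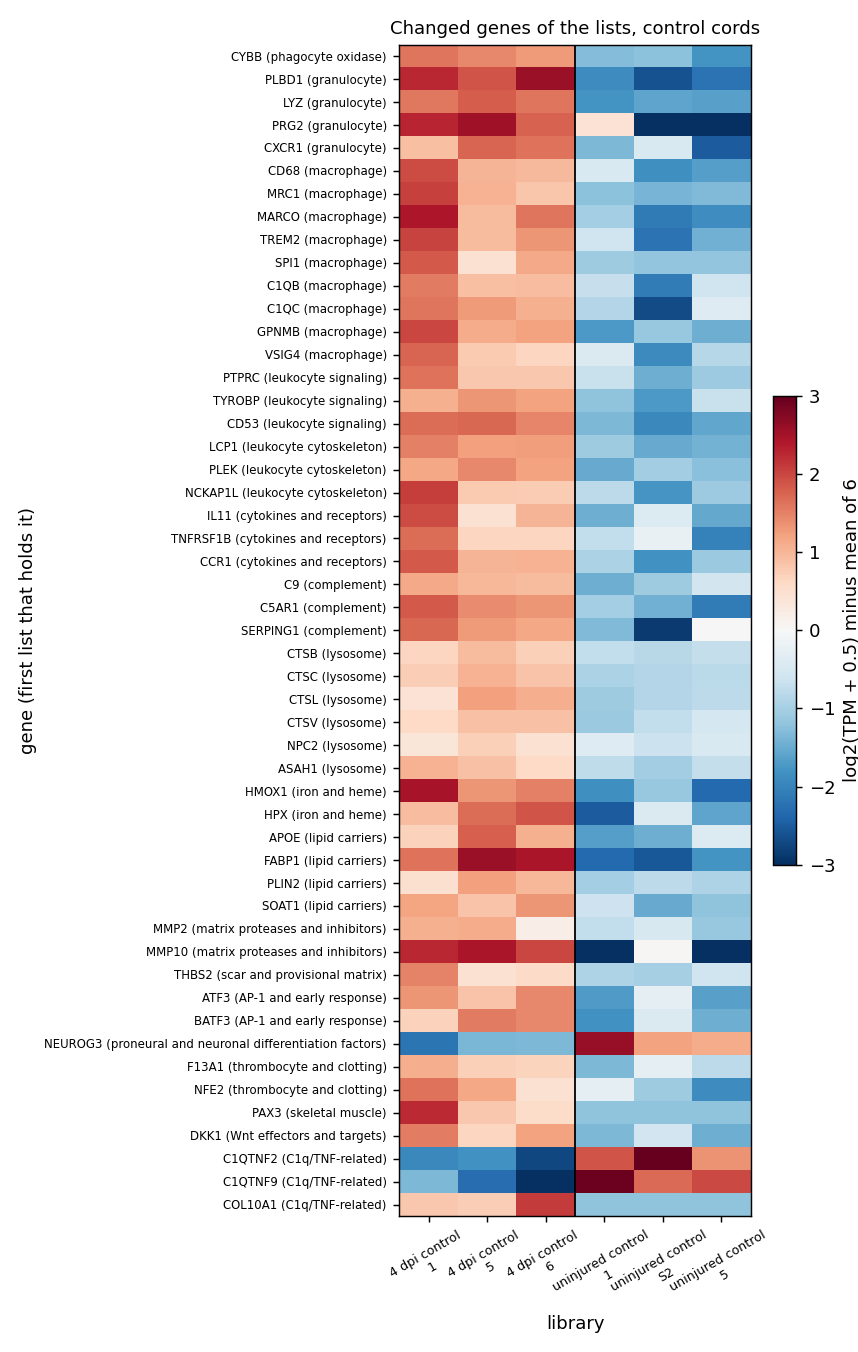
Changed genes, where reported, that belong to a gene list, each as log2(TPM + 0.5) minus the gene's mean over the 6 control libraries, 4 dpi control left of the line and uninjured control right of it, with the color scale ending at -3 and 3. The higher genes are red in the 4 dpi control libraries, and MMP10 is near its mean in library S2, with 14.4 TPM there, while NEUROG3, C1QTNF2 and C1QTNF9 show the opposite.

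Of the 129 higher genes, 50 were in a list and 79 were in none. LGALS1, a galectin of immune and stromal cells, was the most abundant of those in none that is named here, and was chosen after its values were seen. It had 931, 1210 and 1100 TPM in 4 dpi control, against 101, 166 and 346 TPM in uninjured control (log2 fold change 2.58, SE 0.33, adjusted p = 0.00155, limma). SRGN, the proteoglycan core of leukocyte granules, had 43.5, 52.2 and 44.7 TPM in 4 dpi control, against 6.66, 10 and 8.2 TPM in uninjured control (log2 fold change 2.44, SE 0.22, adjusted p = 0.00014, limma). CST7, a cystatin of leukocytes, had 32.9, 43.7 and 28.3 TPM in 4 dpi control, against 2.73, 5 and 6.84 TPM in uninjured control (log2 fold change 2.78, adjusted p = 0.00051, limma). SRGN and CST7 were likewise chosen after their values were seen. TLR7 and TLR8, endosomal receptors for RNA, rose by 2.14 and 2.23 (adjusted p = 0.00743 and 0.0131, limma), also chosen after the fact, and TLR7 was lost without 4 dpi control library 6 (0.0617) and TLR8 without 4 dpi control library 5 (0.079).

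The injury effect was also compared with that in cords that had received the miR-200 inhibitor. No library was shared between the 2 effects, but both took their spread from the same fit of all 12 libraries. The difference passed for 4 of 14764 genes (0.0271%, adjusted p under 0.05, limma). They include LYZ and PLBD1, whose uninjured levels were far apart between the treatments. The treatments also differed in composition. Ribosomal protein genes made up 12.5 to 16.6% of transcripts in the 6 inhibitor libraries, against 5.71 to 10.1% in the 6 control libraries. Because every library has the same TPM total, this bears on levels compared between treatments, and its part in these differences was not tested. LYZ had 1610, 1740 and 1910 TPM at 4 dpi and 715, 614 and 718 TPM uninjured with the inhibitor, against 807, 954 and 817 TPM at 4 dpi and 77.9, 89.5 and 87.5 TPM uninjured in control. Its log2 fold change after injury was 1.36 with the inhibitor and 3.33 in control, a difference of -1.97 (SE 0.23, adjusted p = 0.00857, limma), which did not pass with median-of-ratios scaling (0.21). PLBD1 had 129, 148 and 148 TPM at 4 dpi and 63.4, 45 and 41.8 TPM uninjured with the inhibitor, and its log2 fold change was 1.51 with the inhibitor and 4.49 in control, a difference of -2.98 (SE 0.37, adjusted p = 0.0116, limma). On the log2 scale, though not in TPM for LYZ, the 4 dpi values of the treatments were nearer to each other than the uninjured ones for both genes. C1QTNF9 had 17.1, 18.4 and 8.41 TPM at 4 dpi and 0, 1.17 and 0.2 TPM uninjured with the inhibitor, the opposite of control (log2 fold changes 4.10 and -4.42, difference 8.52, SE 0.78, adjusted p = 0.0012, limma). C1QTNF2 followed the same pattern, with 18.6, 30.3 and 32.5 TPM at 4 dpi and 7.4, 8.45 and 0.906 TPM uninjured with the inhibitor (difference 6.84, SE 0.92, adjusted p = 0.0195, limma, and 0.0556 with median-of-ratios scaling). Without 4 dpi control library 6 the difference passed for 1 gene, C1QTNF9, and without uninjured control library 1 for 10. It passed for 2 genes without 4 dpi control library 1, 4 dpi inhibitor library 6 or 4 dpi inhibitor library 7.

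**Figure D5:**
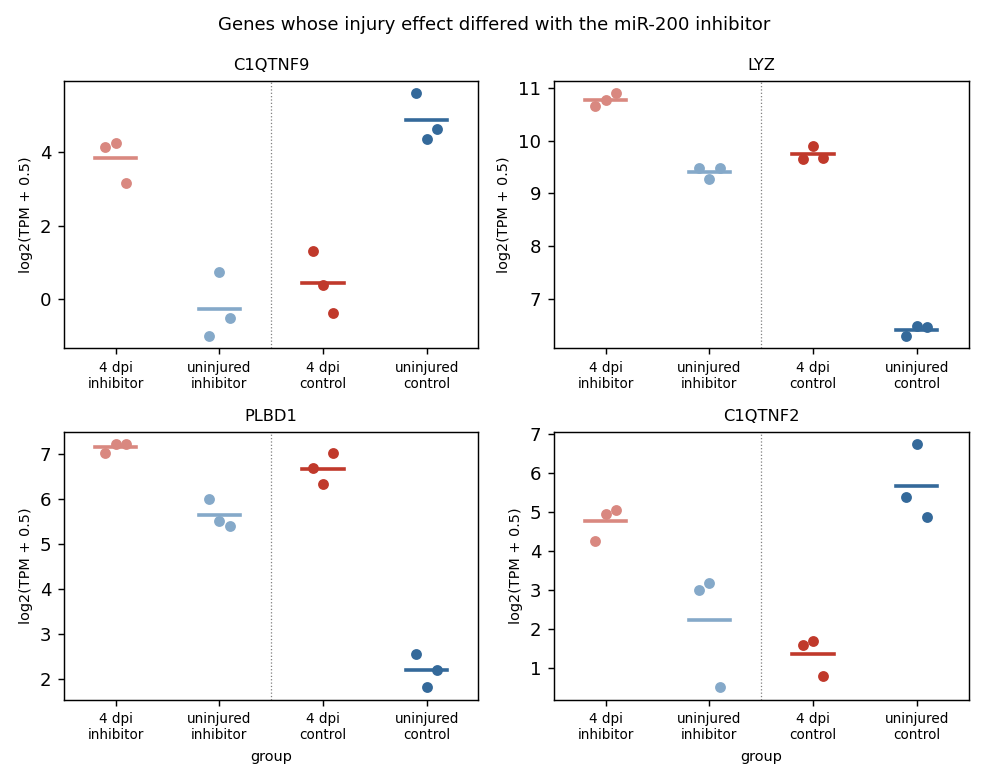
Levels of the 4 genes whose injury effect differed with the miR-200 inhibitor, as log2(TPM + 0.5) per library (points) with group means (bars), for 4 dpi and uninjured cords with the inhibitor and then 4 dpi and uninjured control cords. LYZ and PLBD1 are higher at 4 dpi under both treatments with a larger step in control, and C1QTNF9 and C1QTNF2 move in opposite directions.

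Of the 129 genes that were higher after injury in control cords, 124 also had a log2 fold change above 0 after injury with the inhibitor, against 67.9% of all genes, and 35 passed the test there, against 60 of all genes tested (0.406%). The effect was larger in control for all but 8 of them. Since they were selected on the control values, a larger control effect is part of how they were chosen. Both tests used the same estimate of spread for each gene, so the 2 sets of calls are not independent. For HMOX1 the log2 fold changes were 2.49 with the inhibitor and 3.54 in control, for CD53 2.42 and 3.24, and for CYBB 1.76 and 2.89, and the difference did not pass for these 3 genes. APOE, LGALS1 and SERPING1 had log2 fold changes of -0.07, 0.24 and 0.03 with the inhibitor, against 2.37, 2.58 and 2.78 in control. These differences did not pass the test either.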

How the data were processed

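RNA-seq values came from 12 libraries, 3 per group. The authors deposited 1 table of TPM values for 15091 genes, each library summing to 1000000. The submitters' processing notes name RSEM 1.1.6, Bowtie 0.12.1 and DESeq2 1.16.1 but give no roles, and the reference transcriptome is not given in the sources used here. For 25 genes the symbol was read from the identifier. Because TPM are not counts, no count model was run. The 14764 genes that reached 0.5 TPM in 3 or more libraries were tested on log2(TPM + 0.5) with limma 3.58.1 (R 4.3.3), moderating variances with an intensity trend, with 4 group means over all 12 libraries and Benjamini-Hochberg adjustment over all genes. A call needed a log2 fold change beyond 1 in either direction, with an adjusted p under 0.05. The effect with the inhibitor minus that in control was tested in the same fit at an adjusted p under 0.05. Named genes were the 20 largest increases and 12 largest decreases among called genes averaging 5 TPM or more where they were higher, up to 6 members per list with the smallest adjusted p, genes the study names and cell markers, and others are given as chosen after their values were seen. Gene lists and members were chosen with earlier results of these data known. On simulated data with known changes, 9, 61.2 and 93.9% of genes changed by 1, 2 and 3 on the log2 scale were recovered for the injury comparison in control. The changed genes were drawn only from those with a mean log2(TPM + 0.5) above 2, so weaker genes are not covered. Among the unchanged genes, 7 were called. The simulated noise was independent between genes, so shifts of a whole library were not simulated. Each gene was also given the same spread in all groups. In the data the uninjured control libraries correlated less closely (r = 0.82 to 0.908) than the 4 dpi control libraries (0.927 to 0.975). Alternatives changed the pseudocount, filter, scaling, variance model, libraries, block and thresholds. Figures were drawn with matplotlib 3.10.9 (Python 3.11.15). Some genes counted in the totals are not reported here.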

Additional observations from a re-analysis of the deposited data

Results flagged for a closer look

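The injury effect differed between cords with the miR-200 inhibitor and control cords, by a test of the difference itself in limma, for 4 genes. The inhibitor effect minus the control effect was 8.52 for C1QTNF9 (SE 0.78, adjusted p = 0.0012, limma) and 6.84 for C1QTNF2 (SE 0.92, adjusted p = 0.0195, limma), the signs of the effects being opposite. It was -1.97 for LYZ (SE 0.23, adjusted p = 0.00857, limma) and -2.98 for PLBD1 (SE 0.37, adjusted p = 0.0116, limma), both of which rose after injury in control. At an unadjusted p under 0.05 the difference passed for 989 genes. C1QTNF9 passed in every alternative run. LYZ did not pass with median-of-ratios scaling (adjusted p = 0.21, limma), without an intensity trend (0.0625) or without 4 dpi control library 6 (0.0508). With the replicate block PLBD1 and C1QTNF2 did not pass (0.105 for both). PLBD1 also did not pass without 4 dpi control library 1 or 6 (0.053 and 0.0656) or 4 dpi inhibitor library 6 or 7 (0.0598 and 0.0645). C1QTNF2 also did not pass with median-of-ratios scaling (0.0556), without 4 dpi control library 1, 5 or 6 (0.0871, 0.0586 and 0.0876), without 4 dpi inhibitor library 6 or 7 (0.108 and 0.103), without both control libraries numbered 1 (0.0863) or without uninjured control libraries 1 and S2 (0.167, limma).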

How the results depend on the processing

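Of the 138 called genes, 5 passed under all 24 alternative fits, and none changed direction under any alternative run. Since the groups overlapped in none of these genes, leaving out libraries or changing the pseudocount, filter or variance model could not reverse a direction. A fit of only the control libraries called 5 genes, 5 higher and 0 lower. Leaving out both control libraries numbered 1 gave 287 (199 higher, 88 lower), and an unadjusted p under 0.05 with the same fold gave 817 (478 higher, 339 lower). The number of lower genes was 20 with quantile normalization and 14 without uninjured control libraries 1 and S2. Leaving out 1 library at a time gave 85 to 320 changed genes, 78 to 269 higher and 6 to 51 lower, the highest numbers being those without S2. The genes whose injury effect differed with the inhibitor numbered 7 with quantile normalization and 1 to 10 with 1 library left out. The interaction could not be fitted on the control libraries alone. With the replicate number as a block (replicate block), 928 genes passed, 407 higher and 521 lower, so that lower genes outnumbered higher ones, and among the lower were 18 genes of neurons and synapses, 17 neurotransmitter receptors and 12 proneural and neuronal differentiation factors. Of the called genes, 132 were among them, and with the block the interaction was called for 4 genes, with PLBD1 and C1QTNF2 not among them (adjusted p = 0.105 for both, limma). Deviations of same-numbered control libraries correlated at 0.506 for number 1 and 0.274 for number 5, and the other same-numbered pairs among the 12 libraries at -0.285 to 0.204, and the labels do not say what a number marks and S2 has none. With 3 libraries a group and no read depth in TPM, small changes were seldom recovered, and a gene that did not pass is not shown to be unchanged. The causes of these shifts were not tested.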

Other observations

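Of 10 mitochondrially encoded genes tested none passed, and their median log2 fold change was 1.41. MT-ND1, a subunit of complex I, was at 24.4, 0.39 and 0 TPM in 4 dpi control and listed at 0 in all uninjured control libraries. The median of the mitochondrially encoded list relative to all genes was 1.49 with all libraries and 0.29 without 4 dpi control library 1.

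MPEG1, high in uninjured control library S2, was at 72.3, 217 and 100 TPM at 4 dpi and 120, 46 and 34.7 TPM uninjured with the miR-200 inhibitor.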
